A study of Mus musculus with 9 samples.

Results

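Immunoglobulin genes were examined in RNA from the tibialis anterior, a hind limb muscle of the mouse, taken after injury. The genes were the rows of the deposited table annotated as constant, variable, joining or diversity segments that were chosen by their level, at least 0.5 FPKM in at least 1 of 9 libraries (FPKM here means reads per kilobase of gene and per 1000000 of a scaled library size). This rule kept 58 of 264 immunoglobulin rows, out of 54532 genes in the table: 9 of 13 constant, 40 of 218 variable, 9 of 14 joining and 0 of 19 diversity genes. The libraries came from old P311-/- mice, old wild-type mice of 24 months and young wild-type mice of 4 to 6 months, with 3 libraries in each group. For the P311-/- mice no age in months and no description of the allele is given, nor is the type of injury or its timing for any group. Libraries are numbered within a group and are not said to be separate animals, so the p-values reflect library-to-library spread, which may be technical.

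An antibody is built of heavy chains, whose genes lie on mouse chromosome 12, and of kappa or lambda light chains, from chromosomes 6 and 16. In each B cell a variable segment is joined to a joining segment, with a diversity segment between them in heavy chains, and the joined exon is spliced to a constant segment. The constant gene sets the class of the antibody: Ighm and Ighd give IgM and IgD of B cells that have not switched class, whereas Ighg1, Ighg2c and Igha give IgG1, IgG2c and IgA after switching. B cells and the plasma cells that arise from them are the source of antibodies. A B cell clone shares 1 joined heavy chain and usually 1 light chain, so a variable segment can mark a clone, while constant segments are shared by many clones. In RNA of whole muscle, fewer cells of a type and less RNA per cell cannot be told apart.

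Recovered reads per library ranged from 20475248 to 31910890 in old P311-/-, from 17730208 to 23133027 in old wild-type and from 14222204 to 18249081 in young wild-type muscle. Nrep, the gene of the P311 protein, stood at 14.8, 6.37 and 9.72 FPKM in the old P311-/- libraries, against 71.4 to 83.1 FPKM in old wild type and 63.9 to 86.3 FPKM in young wild type. Its reads in old P311-/- libraries (1062, 286 and 738) were fewer and not absent, and which part of the gene the allele removes is not given. The muscle label held, with the muscle creatine kinase gene Ckm at 2370 to 3790 FPKM in old P311-/-, 2585 to 3162 FPKM in old wild type and 2408 to 2495 FPKM in young wild type. Within old P311-/-, Ckm was at 2370, 3790 and 3475 FPKM and the fast myosin gene Myh4 at 2929, 5499 and 4909 FPKM, so that replicate 1 was the lowest of 9 libraries for both and replicates 2 and 3 the highest. The part of this in the summed immunoglobulin values, which ran the other way in these 3 libraries, was not tested. Old P311-/- replicate 1 stood apart from the other 2 libraries of its group: over all genes tested, 10 differed between old P311-/- and old wild type with all libraries and 1875 without this library (limma, adjusted p under 0.05).

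The variable segments that carried the most reads were Ighv1-78 (ENSMUSG00000096326, minus strand, chr12:115868773-115869227, GRCm38) and Igkv17-127 (ENSMUSG00000076508, plus strand, chr6:67861153-67861659). In the library with most of their reads, old P311-/- replicate 1, the heavy chain joining gene with the most reads was Ighj3 (ENSMUSG00000076619, chr12:113429085-113429132) and the kappa joining gene with the most was Igkj2 (ENSMUSG00000076605, chr6:70722916-70722958). Their reference coding strands are shown because they mark the loop of the antibody that differs most between clones. It begins after a cysteine codon near the end of the variable segment and ends before a tryptophan or phenylalanine codon of the joining segment. Capitals mark TANTNCTGT, which ends in that cysteine codon, and the codons of the Trp-Gly-X-Gly motif in Ighj3 or of the Phe-Gly-X-Gly motif in Igkj2. The last 150 coding bases of each variable segment and the joining segments (48 bases of Ighj3 and 39 coding bases of Igkj2, whose gene spans 43) are given, 5′ to 3′, from GENCODE M21. They are germline, not the rearranged sequence of any mouse.
Ighv1-78: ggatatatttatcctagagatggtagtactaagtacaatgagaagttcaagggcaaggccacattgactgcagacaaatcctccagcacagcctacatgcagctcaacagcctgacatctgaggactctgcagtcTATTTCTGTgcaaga
Igkv17-127: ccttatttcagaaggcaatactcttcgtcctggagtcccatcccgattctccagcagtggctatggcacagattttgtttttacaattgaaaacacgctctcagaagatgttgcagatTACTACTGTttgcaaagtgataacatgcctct
Ighj3: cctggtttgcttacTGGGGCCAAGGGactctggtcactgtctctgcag
Igkj2: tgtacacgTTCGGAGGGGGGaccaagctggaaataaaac

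Searched on the coding strand only, TANTNCTGT was present in 162 of 216 variable genes with a sequence (75%). The Trp-Gly-X-Gly codons were present in 4 of 4 heavy chain joining genes and the Phe-Gly-X-Gly codons in 4 of 5 kappa joining genes. Among annotated variable genes of its locus, the closest to Ighv1-78 was Ighv1-77, with 317 of 351 aligned coding bases identical (90.3%) and no shared run longer than 43 bases. The closest to Igkv17-127 was Igkv17-121, with 344 of 353 bases identical (97.5%) and a shared run of 143 bases. Over the 40 variable genes the identity to the closest gene had a median of 95.3% and reached 98.6%. It is not stated how reads matching several segments were counted, so the split of reads between close segments is uncertain.

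Igkv17-127 had 435, 0 and 7 reads in old P311-/- replicates 1, 2 and 3, against 0 reads in each of the 6 wild-type libraries. As levels these were 42.5, 0 and 0.645 FPKM in old P311-/-. Ighv1-78 had 293 reads (27.3 FPKM) in old P311-/- replicate 1 and 0 reads in the other 8 libraries. A count of 0 allows up to 3 reads, which for a segment of 350 bases is 0.284 to 0.566 FPKM, depending on the library. Both segments were thus high in 1 library of 9, and the old P311-/- libraries lay on either side of the detection limit.

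In old P311-/- replicate 1 the pair held 728 of 821 variable gene reads, a share of 88.7% (95% exact Clopper-Pearson interval 86.3% to 90.8%, counting error only). Of the other 8 libraries, old P311-/- replicate 3 had 7 reads on Igkv17-127, and 7 had 0 reads on either. The most frequent kept segment was Iglv3 with 3 of 4 reads in old P311-/- replicate 2, where all 218 variable genes had 14 reads. In replicate 3 of that group Igkv17-127 and another kappa segment were tied, each with 7 of 14 reads. In old wild type it was Iglv1 with 13 of 48 reads in replicate 1, Igkv6-20 with 13 of 44 in replicate 2, and Iglv1 and Igkv17-121 with 6 of 26 each in replicate 3. In young wild type Igkv6-20, Igkv3-2 and Ighv1-66 each had 12 of 141 reads in replicate 1, a share of 8.51% (4.48% to 14.4%). Igkv4-63 led with 9 of 19 reads in young replicate 2, and Ighv6-6 and Igkv14-126 with 7 of 14 each in young replicate 3. Among the 40 kept segments, young replicate 1 had reads on 22. Old P311-/- replicate 1 had reads on 16, with most of its reads on the pair. Over all 218 variable genes, kept or not, both libraries had reads on 28. Most other libraries had too few reads for a share to be read.

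**Figure D1:**
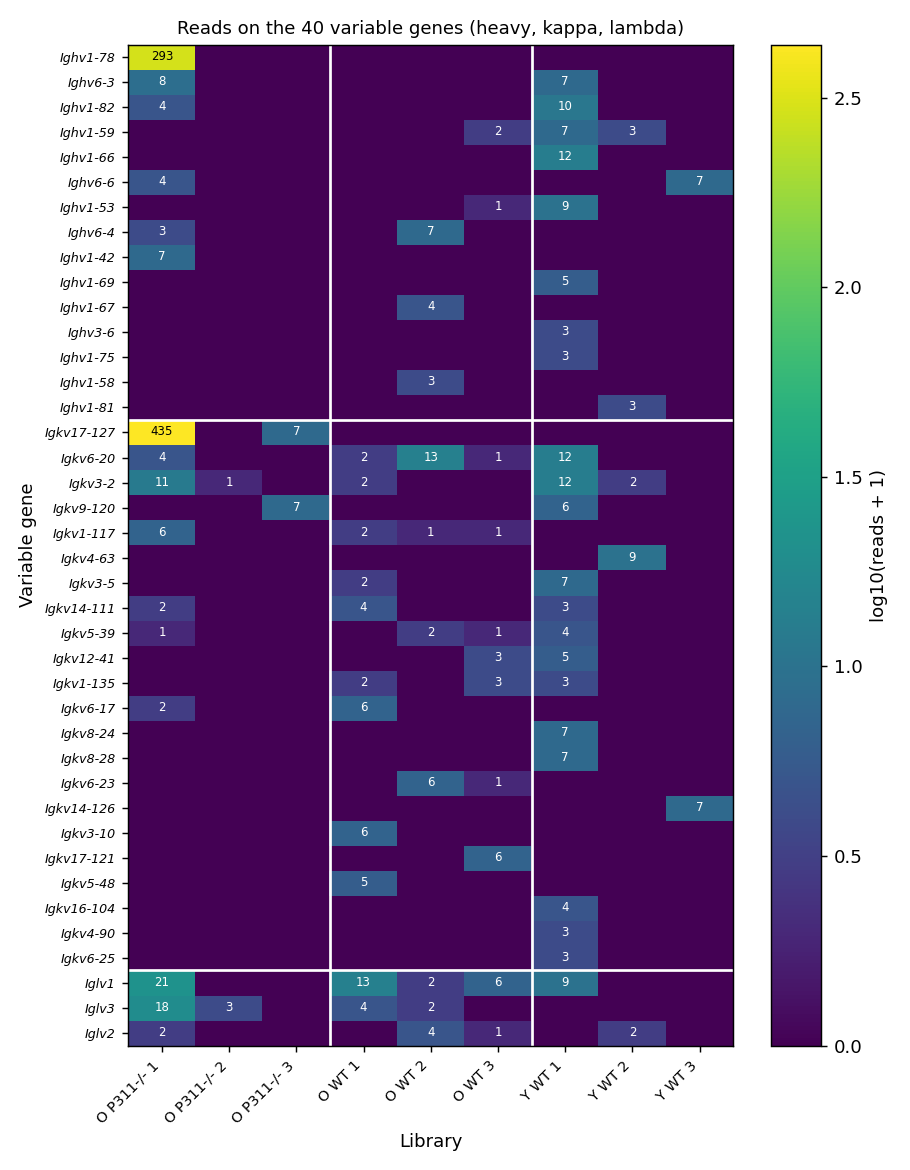
Reads on each of the 40 variable genes (rows: heavy, then kappa, then lambda chain genes, by total reads) in each library (columns: old P311-/-, old wild type, young wild type), with the colour giving log10(reads + 1) and the number giving the reads where above 0. Ighv1-78 (293 reads) and Igkv17-127 (435 reads) stand out in old P311-/- replicate 1, and no other variable gene passes 21 reads in a library.

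The 40 variable genes were 15 heavy chain, 22 kappa and 3 lambda genes. Reads were found in 1 library only for 19 of them, in 2 libraries for 11 and in 5 libraries at most. The rule kept a segment if 1 library reached the threshold, and a read on 350 bases was worth 0.0946 FPKM in the deepest library and 0.189 FPKM in the shallowest, young replicate 1, so the number of segments kept through a library depends in part on its depth. Iglv1, the lambda variable gene with the most reads, was at 1.88, 0 and 0 FPKM in old P311-/-, 1.53, 0.309 and 0.635 FPKM in old wild type and 1.52, 0 and 0 FPKM in young wild type. Iglv3 was at 1.66, 0.440 and 0 FPKM in old P311-/-, at 0.484, 0.317 and 0 FPKM in old wild type, and at 0 in young wild type. Neither lambda gene separated the groups.

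Igkv6-20 stood at 0.374, 0 and 0 FPKM in old P311-/-, 0.246, 2.09 and 0.110 FPKM in old wild type, and 2.11, 0 and 0 FPKM in young wild type. Igkv3-2 was at 1.02, 0.148 and 0 FPKM in old P311-/-, 0.244, 0 and 0 FPKM in old wild type, and 2.096, 0.317 and 0 FPKM in young wild type. The heavy chain genes Ighv6-3 and Ighv1-82 had reads in old P311-/- replicate 1 (0.788 and 0.363 FPKM) and in young replicate 1 (1.30 and 1.71 FPKM) and in no other library. The groups overlapped for each of these 4 genes.

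Joining segments are short, and a single read on 38 bases is worth 0.871 to 1.74 FPKM, so that their FPKM rests on few reads. The 9 joining genes had 66 reads in all. They had 34, 2 and 0 reads in old P311-/-, 11, 1 and 4 in old wild type, and 2, 12 and 0 in young wild type. In old P311-/- replicate 1 all 9 had reads, with 12 on Ighj3, 5 on Ighj2 and on Igkj2, 3 on Igkj3, 2 each on Ighj1, Ighj4, Igkj1 and Igkj5, and 1 on Igkj4. Ighj3 also had 2, 1 and 3 reads in old wild type and 0 in young wild type. Igkj4 had 7 reads in young replicate 2, which is its 11.02 FPKM there. Reads on a joining segment were thus not limited to the library with the dominant pair.

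Constant genes took 17583 of the 18780 reads on all 58 genes (93.6%), and Ighm alone took 13300. Summed over the 9 constant genes, old P311-/- muscle had 173, 48.1 and 49.7 reads per 1000000 of scaled library size (RPM), old wild type 160, 107 and 61.2, and young wild type 84.2, 53.8 and 69.9. The means were 90.4 ± 71.8 in old P311-/-, 109 ± 49.4 in old wild type and 69.3 ± 15.2 in young wild type (SD, n = 3 each). The highest library of all and the 2 lowest were all old P311-/-, and the groups overlapped in each comparison. The log2 ratio of the means was -0.28 for old P311-/- over old wild type and -1.16 without old P311-/- replicate 1. Summed as FPKM, which weights reads by gene length, it was 0.15, so its sign depended on the scale. Set over young wild type, old P311-/- had a ratio of 0.38, and of -0.50 without that library. For old over young wild type it was 0.66, and 0.28 without old wild-type replicate 1. These sums were not tested, since the genes were chosen with results of these data known.

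Summed variable genes spread more widely. Old P311-/- muscle had 28.8, 0.224 and 0.463 RPM, old wild type 2.21, 2.66 and 1.08, and young wild type 9.31, 1.14 and 0.708. The log2 ratio was 2.31 for old P311-/- over old wild type, and -2.53 without old P311-/- replicate 1. Old P311-/- over young wild type gave 1.40, and -3.44 without that library. For old over young wild type it was -0.91, and 1.103 without young replicate 1. With Ighv1-78 and Igkv17-127 left out of the sum, old P311-/- had 3.26, 0.224 and 0.232 RPM, so that replicate 1 still exceeded the other 2 of its group and lay below young replicate 1. These sums favour libraries through which segments were kept. Of the 40 segments, 21 were highest in young replicate 1, 6 in old P311-/- replicate 1 and 0 in its replicates 2 and 3. Over all 218 variable genes, old P311-/- had 859, 14 and 18 reads. Old wild type had 52, 49 and 36, and young wild type 151, 22 and 18. Ratios over all 218 were not computed.

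**Figure D2:**
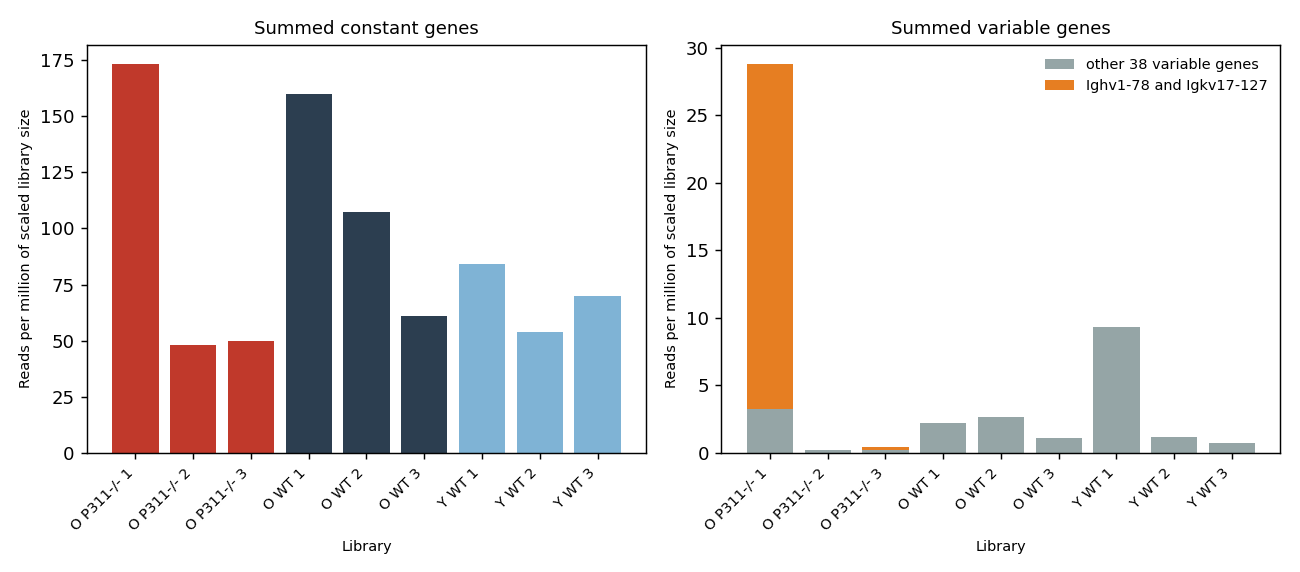
Bars give, for each library, the RPM summed over the 9 constant genes (left; old P311-/- red, old wild type dark, young wild type light blue) and over the 40 variable genes (right), where orange is the part from Ighv1-78 and Igkv17-127 and grey the part from the other 38. Old P311-/- replicate 1 is the highest in both panels, at 173 and 28.8, and the other 2 libraries of its group are the lowest in both.

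Of the 58 genes, 6 passed the filter on low values and were tested, all of them constant genes: Ighm, Ighd, Ighg2c, Igha, Igkc and Iglc2. The other 52, every variable and joining gene among them, did not reach both 0.5 FPKM and 10 reads in at least 3 libraries. None of the 6 passed limma in any of the 3 comparisons, which share libraries (Benjamini-Hochberg adjusted over all genes tested), and none had an unadjusted p under 0.05. With voom and TMM factors, too, 0 passed and 0 had an unadjusted p under 0.05. Of all 14233 genes tested, 0.0703% passed for old P311-/- against old wild type, 5.40% for old against young wild type and 0.400% between old P311-/- and young wild type. An unadjusted p under 0.05 was reached by 16.1%, 26.3% and 21.4% of genes in the same order of comparisons. These counts moved with single libraries left out. For old against young wild type, 768 genes passed, but 0 without old wild-type replicate 2 or young replicate 3, 1 without young replicate 2, 10 without old wild-type replicate 3 and 14 without young replicate 1. Without old P311-/- replicate 1 that comparison had 1755, and the 57 between old P311-/- and young wild type became 2785. A p that misses the threshold does not show that levels were alike, and the standard errors below give the size of change that could have gone unseen.

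Ighm (ENSMUSG00000076617, chr12:113418558-113422730), the IgM heavy chain, was the most abundant immunoglobulin gene by reads in every library. It was at 53.3, 19.7 and 22.1 FPKM in old P311-/-, 79.6, 44.9 and 20.7 FPKM in old wild type, and 29.4, 25.1 and 34.2 FPKM in young wild type. Young libraries lay close together, and both old groups reached higher and lower. The log2 fold change was -0.56 for old P311-/- against old wild type (SE 0.48, limma adjusted p = 0.577), 0.52 for old against young wild type (SE 0.48, adjusted p = 0.528) and -0.04 between old P311-/- and young wild type (adjusted p = 0.969). Ighd, the IgD heavy chain gene made by splicing of the same primary transcript as Ighm, was at 0.664, 0.501 and 0.331 FPKM in old P311-/-, 0.388, 0.349 and 0.632 FPKM in old wild type, and 0.487, 0.220 and 0.373 FPKM in young wild type. The libraries with the most Ighm were not those with the most Ighd: old wild-type replicate 1 led for Ighm and old P311-/- replicate 1 for Ighd.

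Igkc (ENSMUSG00000076609, chr6:70726435-70726966), the kappa light chain constant gene, was at 105, 2.42 and 4.35 FPKM in old P311-/-, 8.49, 19.2 and 17.8 FPKM in old wild type, and 30.9, 8.32 and 5.90 FPKM in young wild type. Old P311-/- muscle held the highest library and the 2 lowest. The log2 fold change was -0.44 against old wild type (SE 1.21, limma adjusted p = 0.873), and relative to young wild type it was -0.14 (adjusted p = 0.961). Without old P311-/- replicate 1 it was -2.101 against old wild type (SE 0.72, adjusted p = 0.0972), and -1.79 relative to young wild type (adjusted p = 0.125). In old wild type relative to young it was 0.31 (adjusted p = 0.893).

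The lambda constant genes Iglc1, Iglc2 and Iglc3 had 69, 75 and 23 reads in old P311-/- replicate 1 and 0 reads in replicates 2 and 3 of that group. In wild-type libraries they had at most 7, 17 and 13 reads. Iglc2 stood at 4.30, 0 and 0 FPKM in old P311-/-, 0.0753, 0 and 1.15 FPKM in old wild type, and 1.19, 0.684 and 0 FPKM in young wild type, and was far from passing in each comparison (lowest adjusted p = 0.801, limma). Iglc1 and Iglc3 overlap an antisense transcript, and whether strand was used in counting is not stated. Lambda genes took 167 of 1760 light chain constant reads in old P311-/- replicate 1, a share of 9.49% (8.16% to 10.95%). The share was 0 of 23 and 0 of 70 in replicates 2 and 3, where 0 reads allow up to 14.8% and 5.13%. It was 17.6% (11.3% to 25.7%), 3.98% (1.61% to 8.02%) and 8.40% (5.27% to 12.6%) in old wild type, and 6.39% (3.77% to 10.04%), 15.9% (8.98% to 25.2%) and 4.62% (0.962% to 12.9%) in young wild type. Kappa chains dominated in every library.

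**Figure D3:**
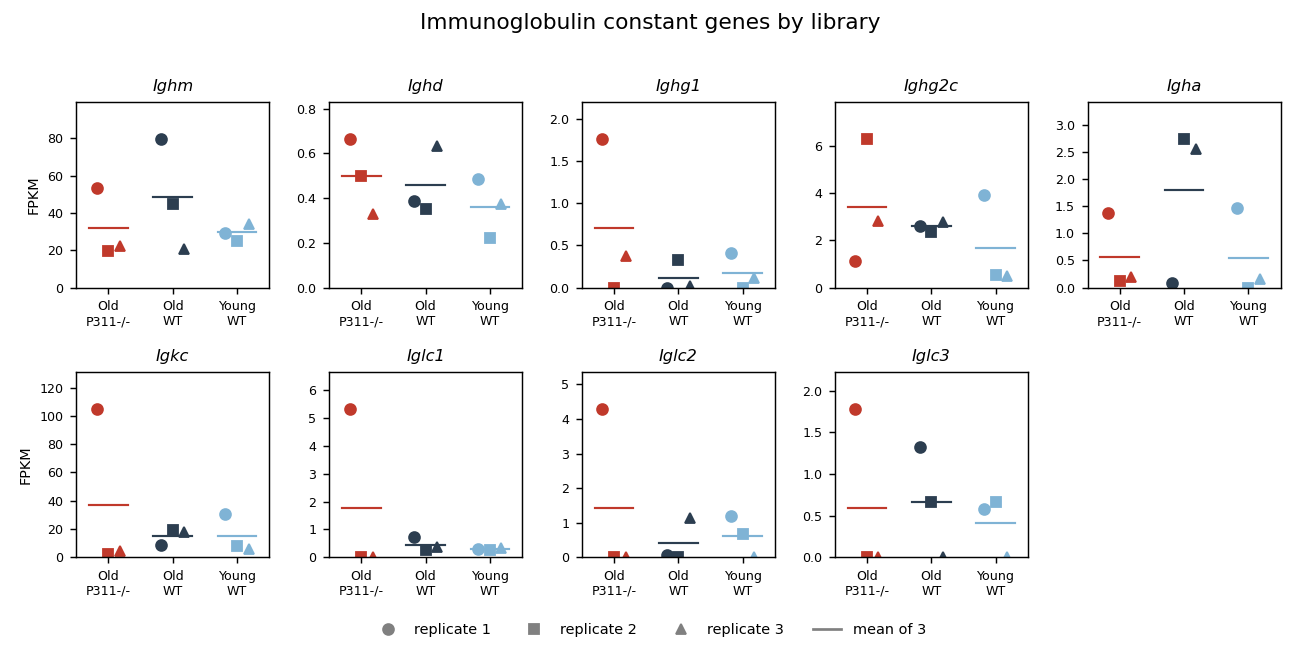
FPKM of each of the 9 constant genes, 1 panel a gene, with points for the 3 libraries of old P311-/-, old wild type and young wild type (the marker gives the replicate) and a line for the mean of 3. Old P311-/- replicate 1 is the highest of 9 libraries for Igkc, Ighd, Ighg1, Iglc1, Iglc2 and Iglc3, and old wild-type replicate 1 for Ighm, at 79.6 FPKM.

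Per length, heavy and light chain genes did not keep a fixed ratio. The FPKM of Ighm was 0.508, 8.14 and 5.07 times that of Igkc in old P311-/-, 9.37, 2.34 and 1.16 times in old wild type, and 0.953, 3.02 and 5.80 times in young wild type. Heavy variable segments had 10.03 reads for each 100 reads of heavy constant genes in old P311-/- replicate 1 and 5.55 in young replicate 1. These segments had at most 0.875 in the other libraries. Old wild-type replicate 1, with 3352 heavy constant reads, the most of any library, had 0 reads on the 15 heavy variable genes. Kappa variable segments had 28.9, 4.35 and 20 reads for each 100 reads of Igkc in old P311-/-, 31.6, 13.02 and 6.99 in old wild type, and 30.5, 14.9 and 11.3 in young wild type. So the reads on Ighm did not come with a like number of reads on the kept heavy variable segments. Kept kappa segments had reads in every library, but at 4.35 to 31.6 for each 100 of Igkc. In old P311-/- replicate 2 this was 1 read.

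Switched classes were Ighg2c, Ighg1 and Igha. Together they had 9.71, 8.67 and 5.196 RPM in old P311-/-, 3.69, 11.3 and 10.5 in old wild type, and 10.2, 0.718 and 1.37 in young wild type. As a share of heavy constant reads this was 8.71% (7.75% to 9.74%), 18.5% (15.96% to 21.3%) and 10.96% (9.39% to 12.7%) in old P311-/-, and 2.39% (1.90% to 2.96%), 11.7% (10.2% to 13.4%) and 20.7% (18.5% to 23.1%) in old wild type. In young wild type it was 15.3% (13.1% to 17.6%), 1.48% (0.767% to 2.57%) and 2.05% (1.36% to 2.97%). Young replicates 2 and 3 had the fewest switched reads, 12 and 27, and young replicate 1 lay among the old libraries. The classes IgG2b, IgG3 and IgE stayed under the threshold, with Ighg2b at most 0.419 FPKM, Ighg3 at most 0.184 FPKM and Ighe at most 0.0664 FPKM.

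Ighg2c (ENSMUSG00000076612, chr12:113285325-113288932) was at 1.14, 6.29 and 2.80 FPKM in old P311-/-, 2.61, 2.37 and 2.78 FPKM in old wild type, and 3.93, 0.541 and 0.496 FPKM in young wild type. Old wild-type libraries lay close together, and the other 2 groups spread on both sides of them. The log2 fold change was 0.08 for old P311-/- against old wild type (SE 0.75, limma adjusted p = 0.965), 1.21 for old against young wild type (adjusted p = 0.329) and 1.30 between old P311-/- and young wild type (adjusted p = 0.336). Igha (ENSMUSG00000095079), the IgA heavy chain, was at 1.37, 0.126 and 0.198 FPKM in old P311-/-, 0.0864, 2.74 and 2.54 FPKM in old wild type, and 1.46, 0 and 0.152 FPKM in young wild type. Its log2 fold change was -1.27 for old P311-/- against old wild type (SE 1.28, adjusted p = 0.634), 1.72 for old against young wild type (adjusted p = 0.421) and 0.44 between old P311-/- and young wild type (adjusted p = 0.867). Ighg1, the IgG1 heavy chain, was at 1.76, 0 and 0.370 FPKM in old P311-/-, 0, 0.326 and 0.0160 FPKM in old wild type, and 0.408, 0 and 0.117 FPKM in young wild type, and was too low to test.

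The class that led differed between libraries of 1 group. In old P311-/- muscle Ighg1 led the switched reads in replicate 1 with 46.9% (40.9% to 53.0%), whereas Ighg2c led with 96.1% (91.8% to 98.6%) in replicate 2 and 71.3% (63.6% to 78.3%) in replicate 3. In old wild type Ighg2c led with 93.8% (86.0% to 97.9%) in replicate 1, and Igha led with 64.7% (57.4% to 71.5%) in replicate 2 and 64.6% (58.3% to 70.4%) in replicate 3. In young replicate 1 Ighg2c had 51.3% (43.1% to 59.4%). These intervals cover counting error only, and in each group the interval of the Ighg2c share in at least 1 library lay apart from that in another.

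**Figure D4:**
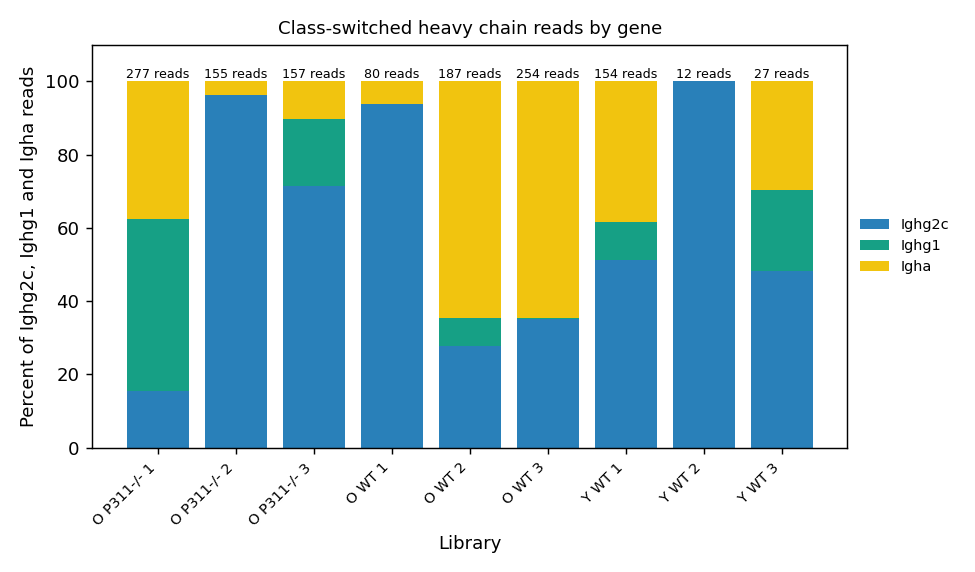
Share of the reads on Ighg2c, Ighg1 and Igha that fell on each of these genes, by library, with the number of such reads above each bar. The leading gene is Ighg1 in old P311-/- replicate 1 (46.9%), Igha in old wild-type replicates 2 and 3 (64.7% and 64.6%) and Ighg2c in the other libraries.

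Other genes of B cells and plasma cells were set beside the immunoglobulin genes, from lists chosen with earlier results of these data known. Of 20 B cell genes, of which 7 passed the filter and were tested, 13 were highest in old P311-/- replicate 1. Over all genes tested, 6.04% were highest in that library. The share among genes too low to test, which most of this list were, was not computed. Ebf1, Cd72, Cd22, Vpreb3, Fcmr, Fcer2a and Cr2 were highest in other libraries. Ms4a1, which encodes the B cell surface protein CD20, was at 1.56, 0 and 0 FPKM in old P311-/-, 0.156, 0.0195 and 0.0334 FPKM in old wild type, and 0.0320, 0.0870 and 0.0491 FPKM in young wild type. Old P311-/- replicate 1 was far above the other 8 libraries. Replicates 2 and 3 of that group had 0 reads, below every wild-type library, and old and young wild type overlapped. Cd79a, a signalling chain of the B cell receptor, was at 3.10, 0.0768 and 0.0227 FPKM in old P311-/-, 0.759, 0 and 0.369 FPKM in old wild type, and 0.408, 0.698 and 0.0695 FPKM in young wild type. Its partner Cd79b was at 4.41, 0.938 and 1.09 FPKM in old P311-/-, 1.095, 0.590 and 1.48 FPKM in old wild type, and 0.877, 1.003 and 1.70 FPKM in young wild type.

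The list summed to 5.37 to 22.5 FPKM in old P311-/-, 6.96 to 9.67 FPKM in old wild type and 8.07 to 10.8 FPKM in young wild type. Of its 7 tested genes 0 passed limma in any comparison, and 0, 0 and 2 had an unadjusted p under 0.05 for old P311-/- against old wild type, old against young wild type, and between old P311-/- and young wild type. Over all genes tested, 16.1%, 26.3% and 21.4% had such a p. The median log2 fold change of the 7 genes was -0.21, -0.26 and -0.29 in that order, and the median over all genes tested was -0.0039, 0.0050 and 0.014.

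Jchain, which encodes the chain that joins IgM and IgA into polymers, was at 4.99, 0.400 and 0.579 FPKM in old P311-/-, 0.549, 2.25 and 1.63 FPKM in old wild type, and 1.34, 0.238 and 0.201 FPKM in young wild type. The 4 libraries with the most Jchain were also the 4 with the most Igha and the most Igkc. Mzb1, a chaperone of antibody assembly, was at 4.07, 0.556 and 0.914 FPKM in old P311-/-, 0.866, 1.13 and 1.05 FPKM in old wild type, and 2.19, 1.06 and 1.17 FPKM in young wild type. Pou2af1, a coactivator of immunoglobulin transcription, was at 1.03, 0 and 0 FPKM in old P311-/-, 0, 0 and 0.0649 FPKM in old wild type, and 0.104, 0.141 and 0.0794 FPKM in young wild type.

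The plasma cell genes Sdc1, Xbp1, Tnfrsf17 and Prdm1 were not highest in old P311-/- replicate 1. Sdc1, which encodes syndecan 1, was at 3.42, 1.40 and 2.75 FPKM in old P311-/-, 1.97 to 2.83 FPKM in old wild type and 3.10 to 4.54 FPKM in young wild type. Xbp1, a regulator of secretory capacity, was at 23.3, 25.9 and 26.1 FPKM in old P311-/-, 22.6 to 24.0 FPKM in old wild type and 20.3 to 22.9 FPKM in young wild type. Tnfrsf17, the receptor BCMA of plasma cells, was at 0.861, 1.098 and 0.284 FPKM in old P311-/-, 0.566, 1.48 and 0.102 FPKM in old wild type, and 1.13, 0.147 and 0.124 FPKM in young wild type. Prdm1, a regulator of plasma cell fate, was at 0.130 to 0.666 FPKM in old P311-/-, 0.422 to 0.768 FPKM in old wild type and 0.355 to 0.804 FPKM in young wild type.

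Of 22 plasma cell and secretion genes, 19 were tested. Against old wild type, 0 passed in old P311-/-. An unadjusted p under 0.05 was reached by 2 of the 19 for old P311-/- against old wild type, by 5 for old against young wild type and by 8 between old P311-/- and young wild type. Over all genes tested these shares were 16.1%, 26.3% and 21.4%, so the 2 and the 5 of 19 did not stand out. The 8 of 19 lay above its share, in a list chosen with earlier results of these data known, and this was not tested. Creld2, a protein of the endoplasmic reticulum stress response, fell in old against young wild type (log2 fold change -1.08, SE 0.12, limma adjusted p = 0.0246) and in old P311-/- against young wild type (-0.77, adjusted p = 0.0436), and no other gene of the list passed. The first of these calls was lost without old wild-type replicate 2 (adjusted p = 0.114) and without young replicates 1, 2 or 3 (0.0509, 0.0896 and 0.0796), and the second under 8 of the 9 omissions of a library (up to 0.178). The median log2 fold change of the list was -0.14 for old P311-/- against old wild type, -0.37 for old against young wild type and -0.56 between old P311-/- and young wild type. Over all genes tested the medians were -0.0039, 0.0050 and 0.014 in that order. The list summed to 91.0 to 125 FPKM in old P311-/-, 105 to 113 FPKM in old wild type and 122 to 134 FPKM in young wild type.

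**Figure D5:**
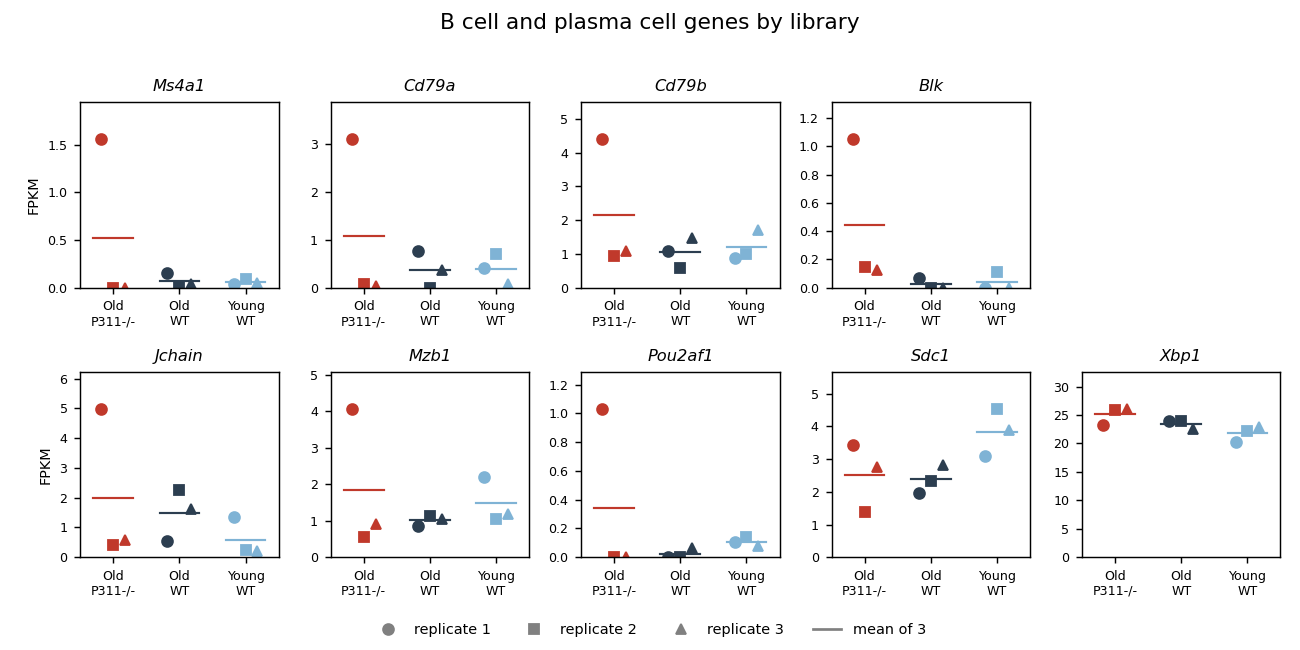
FPKM of 4 B cell genes (top: Ms4a1, Cd79a, Cd79b, Blk) and 5 plasma cell genes (bottom: Jchain, Mzb1, Pou2af1, Sdc1, Xbp1) in the 3 libraries of old P311-/-, old wild type and young wild type, with a line for the mean of 3. Old P311-/- replicate 1 is the highest of 9 libraries for the 4 B cell genes and for Jchain, Mzb1 and Pou2af1, and not for Sdc1 or Xbp1. The 4 B cell genes are among the 13 of 20 listed that were highest in that library.

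Receptors and transporters of antibodies were also measured. Fcer1a, the IgE-binding chain of the high-affinity IgE receptor, rose in old against young wild type (5.49 ± 3.08 FPKM in old and 0.954 ± 0.257 FPKM in young; SD, n = 3 each; limma adjusted p = 0.0308), while the IgE gene Ighe had 3 reads in all. This call was lost without old wild-type replicates 2 or 3 (adjusted p = 0.118 and 0.0994) and without young replicates 1, 2 or 3 (0.0602, 0.104 and 0.113). Of the 9 genes tested in this list of 14, it alone passed, in this comparison, and 1, 2 and 5 had an unadjusted p under 0.05 for old P311-/- against old wild type, old against young wild type, and between old P311-/- and young wild type. Over all genes tested, 16.1%, 26.3% and 21.4% had such a p in the same order. Fcgr2b, the inhibitory IgG receptor, had a log2 fold change of -0.37 for old P311-/- against old wild type (adjusted p = 0.564). Fcgrt, the receptor that recycles IgG, had 0.03 (adjusted p = 0.911) and, for old against young wild type, -0.34 (adjusted p = 0.134). Pigr, which carries IgA and IgM across epithelia, was at most 0.0871 FPKM.

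T cell genes, from 14 markers, summed to 38.8, 14.1 and 16.3 FPKM in old P311-/-, 36.1, 27.9 and 29.5 FPKM in old wild type, and 32.6, 33.3 and 34.2 FPKM in young wild type. Of the 14, 7 were highest in old P311-/- replicate 1, where 6.04% of all genes tested were highest. In replicate 2 or 3 of that group 10 of the 14 were lowest. The share of all genes lowest there was not computed. The part of T cell, B cell and stroma content in the immunoglobulin values was not tested. Of 11 genes of lymph node stroma found in the table, Ccl19, Madcam1, Glycam1 and Chst4 were at 0 in all 9 libraries. The list summed to 13.9 to 24.7 FPKM in old P311-/-, 10.5 to 26.9 FPKM in old wild type and 27.9 to 40.3 FPKM in young wild type, and old P311-/- replicate 1 had the lowest sum of its group. Ccl21a, a chemokine of lymphatic vessels and lymph node stroma, was at 0.698, 3.20 and 8.48 FPKM in old P311-/-, 2.75, 1.35 and 0.206 FPKM in old wild type, and 22.5, 10.3 and 1.76 FPKM in young wild type. It was highest in young replicate 1, and its log2 fold change for old against young wild type was -2.81 (SE 1.13, limma unadjusted p = 0.0337, adjusted p = 0.154). Follicle gene Cxcl13 was at 2.26, 2.38 and 2.07 FPKM in old P311-/-, at 1.08 to 3.37 FPKM in old wild type and at 2.18 to 6.12 FPKM in young wild type. Of 6 genes of B cell precursors, Rag1, Rag2 and Vpreb2 were at 0 in all libraries. The other 3 had few reads: Dntt up to 11 in a library, Vpreb1 up to 5 and Igll1 up to 1.

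Germinal centre and class switch genes (13, of which 7 tested) and plasma cell survival factors (8, of which 5 tested) had 0 genes passing in any comparison. For old P311-/- against old wild type 0 and 1 genes of these lists had an unadjusted p under 0.05. This was reached by 16.1% of all genes tested. The medians of the lists were -0.27 and -0.36 on the log2 scale. In old against young wild type the medians were -0.06 and -0.02, and in old P311-/- against young wild type -0.47 and -0.44.

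The threshold of 0.5 FPKM fell among genes of few reads. Just inside it were Igkv1-135 (highest value 0.503 FPKM, 8 reads in all), Ighv1-81 (0.511 FPKM, 3 reads) and Ighv1-58 (0.516 FPKM, 3 reads). Just outside were Ighv1-15 (0.4995 FPKM, 5 reads), Igkv1-110 (0.494 FPKM, 6 reads) and Igkv4-72 (0.493 FPKM, 3 reads). The rows left out by the threshold had 3 to 73 reads per library.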

How the data were processed

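RNA of injured tibialis anterior muscle was measured in 9 libraries, 3 per group. The deposited table gives FPKM and gene length. The authors used HISAT2 2.2.1, featureCounts 2.1.1, DESeq2 1.42.0 and the build mm39, per the submitters' processing notes; the coordinates in the deposited table are those of GRCm38 (GENCODE M21) for 98.3% of shared genes and for all 58 immunoglobulin genes, and are given as such. Multiplying FPKM by length and a library constant returned whole numbers for 100% of values (tolerance 0.001), which are the reads reported. The size by which the authors scaled FPKM is proportional to a median-of-ratios factor.

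Differences were tested with limma 3.58.1 (R 4.3.3; trend, robust) on log2(FPKM + 0.1), which understates changes of low genes, in 14233 genes with at least 0.5 FPKM and at least 10 reads in at least 3 libraries. All 9 libraries entered 1 fit and Benjamini-Hochberg adjustment covered all genes tested. The fitting code was tested on simulated data. Shares have exact Clopper-Pearson 95% intervals, for counting error only.

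The members and gene lists were chosen with earlier results of these data known. Named genes were all constant and joining members, the 8 variable genes of highest mean FPKM, the leading variable gene of each library, list genes that passed, listed B cell, plasma cell and antibody receptor genes, and those nearest the threshold; some genes are not reported here. Blk, Cxcl13, Ccl21a and the genes of B cell precursors or at 0 were named after their values were seen. So were the B cell genes highest in libraries other than old P311-/- replicate 1. Alternatives were another pseudocount, no filter, total-count scaling, voom, 6 libraries, a replicate block, leaving out each library and, for sums, FPKM in place of reads.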

Additional observations from a re-analysis of the deposited data

Results flagged for a closer look

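Reads on immunoglobulin pseudogenes lay outside the measurements above. Old P311-/- replicate 1 had 17 such reads, 12 on Ighv3-2, 4 on Ighv1-60 and 1 on Igkv1-108. The other 2 old P311-/- libraries had 0, old wild type had 0, 0 and 5 (all on Ighv3-2), and young wild type had 0 in each library. The result was listed because these reads had not been analysed, and it was not tested against the wild-type libraries.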

How the results depend on the processing

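No immunoglobulin gene passed under any alternative run, the replicate block included (0 in each comparison). Same-numbered libraries had correlations of -0.1005 to 0.1453 in their deviations from the group means, and differently numbered ones of -0.1590 to 0.2145. Whether equal numbers mark a shared batch is not stated. With the block, 4, 0 and 5 of all genes passed, against 10, 768 and 57 without it. The comparisons were, in order, old P311-/- with old wild type, old with young wild type, and old P311-/- with young wild type. In the same order, the counts were 9, 5 and 23 without the filter, 9, 346 and 34 with total-count scaling, 8, 1043 and 119 with voom, 6, 1653 and 12 with 6 libraries, and 12, 833 and 87 with a pseudocount of 1. For old against young wild type, 482 genes were higher and 286 lower, against 96 and 250 with total-count scaling, under which the median of all genes was -0.12, against 0.0050.

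Leaving genes out of the sums was chosen after seeing the data. Without Ighm the constant log2 ratio was 0.75 for old P311-/- against old wild type and 1.18 against young wild type. Without Ighv1-78 and Igkv17-127 the variable ratio was -0.68 against old wild type and -1.59 against young wild type. Summed as FPKM, the constant ratio was 0.15 against old wild type. Over omissions of 1 library, the constant ratio ran from -1.16 to 0.10 (old P311-/- against old wild type) and -0.50 to 0.69 (against young wild type). The variable ratio ran from -2.53 to 2.88, -1.40 to 1.103 and -3.44 to 3.41 for old P311-/- against old wild type, old against young and old P311-/- against young wild type.

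Directions of single genes that did not pass also turned. For old P311-/- against old wild type the ranges were -2.10 to 0.59 (Igkc), -0.50 to 0.68 (Ighg2c), -1.48 to 1.41 (Iglc2) and -0.10 to 0.32 (Ighd). For old against young wild type they were -0.17 to 1.02 (Igkc) and -1.84 to 0.0077 (Iglc2). For old P311-/- against young wild type they were -0.49 to 0.22 (Ighm), -1.79 to 0.90 (Igkc), -0.44 to 1.54 (Igha) and -2.22 to 0.51 (Iglc2). With voom, Ighg2c was -0.10 and Iglc2 -0.18 against old wild type, and Igkc 0.14 against young wild type; with a pseudocount of 1, Iglc2 was 0.17 against young wild type. The cause was not tested. Some settings also ended list calls: Creld2 in old against young wild type had adjusted p = 0.0560 without the filter and 0.0621 with the block, and Fcer1a 0.0752, 0.0686 and, with total-count scaling, 0.0513 (limma). Creld2 between old P311-/- and young wild type had 0.0840 without the filter, 0.0582 with total-count scaling, 0.0508 with voom, 0.0888 with 6 libraries and 0.0913 with the block. Low reads limit the variable and joining genes, none of which could be tested.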
